A study of Mus musculus with 26 samples.

Results

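The common lymphoid progenitor (CLP) was compared with 7 other blood stem and progenitor populations of mouse bone marrow, on 3 CLP arrays of 26 in all. The CLP arrays are those that the labels title CLP, and the labels describe the sorted cells as Lin- B220- Sca1low cKitlow Flt3+ IL-7Ra+. The other arrays came from lymphoid-primed multipotent progenitors (LMPP; 4 arrays), from stem cells sorted as reporter-negative (HSC GFP-; 3), and from megakaryocyte-erythroid precursors (PreMegE; 3). Granulocyte-macrophage precursors at an earlier stage (PreGM) and a later stage (GMP) were each sorted into reporter-negative and reporter-positive cells, giving PreGM GFP- (3 arrays), PreGM GFP+ (3), GMP GFP- (4) and GMP GFP+ (3). All mice were 8 to 15 weeks old and carried the genotype Gata1-EGFP Tg/+, in which EGFP reports the activity of Gata1, the erythroid and megakaryocyte transcription factor. LMPP were reporter-negative by their gate, whereas no reporter gate is given for CLP and PreMegE. The labels do not say whether arrays of 1 group came from separate animals or from pools. The p-values therefore reflect the spread among arrays only, which may be technical.

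CLPs are rare marrow cells that express the interleukin 7 receptor and give rise to B cells and, in suitable settings, to T cells, natural killer cells, innate lymphoid cells and some dendritic cells. Within them the transcription factors E2A and EBF1 switch on the B cell programme, and the RAG recombinase and the polymerase TdT begin to rearrange the antigen receptor genes. The surface protein LY6D marks the CLPs that are most biased to the B lineage.

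Each gene was given its CLP signal minus the mean of the 7 other group means, on the log2 scale of the deposited values, and tested with limma with Benjamini-Hochberg adjustment over 19938 genes. At an adjusted p under 0.05, 527 genes (2.64%) were higher and 400 genes (2.01%) lower in CLP. Of these, 112 (0.562% of the genes) had all 3 CLP arrays above each of the 23 other arrays, and 53 (0.266%) had them below. Against each of the 7 groups taken singly, 68 genes (0.341%) were called higher and 21 (0.105%) lower in every one; these 7 comparisons share the CLP arrays. The fewest genes were called against PreGM GFP- (148 higher and 157 lower, 0.742% and 0.787%) and LMPP (165 and 149, 0.828% and 0.747%). Against HSC GFP- the counts were 597 and 621 (2.99% and 3.11%), and against PreMegE they were 603 and 381 (3.02% and 1.91%). They were 505 and 723 (2.53% and 3.63%) against GMP GFP-, 463 and 464 (2.32% and 2.33%) against GMP GFP+ and 501 and 408 (2.51% and 2.05%) against PreGM GFP+. The spread between arrays differs from group to group, so the counts do not order the groups by distance. Leaving out a CLP array leaves fewer arrays that have to lie beyond the rest. The genes above all others then went from 112 to 150, 151 and 231 without CLP arrays 1, 2 and 3, and those below from 53 to 88, 62 and 91. Without CLP array 2 the 400 lower calls fell to 232 and the 21 to 12.

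Of the lists counted, that of dendritic cells had 8 of 22 genes above every other array, and that of B cell receptor signalling 5 of 21. B lineage regulators had 4 of 25, V(D)J recombination 3 of 16, and monocytes and macrophages 3 of 29. Some of these genes stand in more than 1 list. Over all genes, 116 of 19938, called or not, lay above every other array. Rag1, Il7r, Cmah, Blnk and Kmo led the genes whose 3 CLP arrays lay above every other array. Cd63, Muc13, Rab38, Ocrl and Ppic led those below. The median of all deposited values was 6.61, and whether dimmer signals exceed background is not known here. For 48 of the 112 genes the mean of the other groups lay under that level, and for 24 of the 53 the CLP mean did. Their log2 differences are differences of signal and not exact folds of RNA. In bulk samples, fewer cells of a type and less RNA per cell cannot be told apart.

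The promoters of 4 of these genes are shown, 3 of them above and 1 below every other array, from RefSeq on GRCm38.p6, with 250 bases before and 50 after the annotated start, 5′ to 3′ on the gene's strand as the table gives it. Capitals mark matches, on either strand, to the core motifs of factors of early lymphoid cells: TCCCNNGGGA for EBF, CAGCTG and CAGGTG for E proteins, TGTTTAC for FOXO, TGTGGT for RUNX and TGGGAA for Ikaros. None of these letters says that a factor is bound there.

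Rag1, chr2:101649483-101649782, minus strand: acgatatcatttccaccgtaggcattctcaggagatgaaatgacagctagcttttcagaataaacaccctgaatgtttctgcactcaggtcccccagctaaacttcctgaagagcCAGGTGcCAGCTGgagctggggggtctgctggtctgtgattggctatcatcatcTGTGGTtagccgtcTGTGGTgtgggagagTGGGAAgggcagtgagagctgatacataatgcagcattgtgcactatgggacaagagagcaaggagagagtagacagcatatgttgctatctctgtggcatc

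Ebf1, chr11:44617850-44618149, plus strand: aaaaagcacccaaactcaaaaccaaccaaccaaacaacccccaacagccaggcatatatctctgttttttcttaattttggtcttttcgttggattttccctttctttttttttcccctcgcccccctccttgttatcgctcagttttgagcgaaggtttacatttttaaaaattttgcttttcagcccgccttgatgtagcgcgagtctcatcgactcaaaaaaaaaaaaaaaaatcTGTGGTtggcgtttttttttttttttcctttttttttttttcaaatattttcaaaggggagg

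Siglech, chr7:55767934-55768233, plus strand: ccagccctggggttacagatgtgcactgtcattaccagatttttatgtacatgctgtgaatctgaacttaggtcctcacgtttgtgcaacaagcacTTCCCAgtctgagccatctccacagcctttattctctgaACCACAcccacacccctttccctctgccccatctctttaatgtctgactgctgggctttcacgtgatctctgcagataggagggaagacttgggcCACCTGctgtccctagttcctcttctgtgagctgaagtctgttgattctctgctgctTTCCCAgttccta

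Cd63, chr10:128909095-128909394, plus strand: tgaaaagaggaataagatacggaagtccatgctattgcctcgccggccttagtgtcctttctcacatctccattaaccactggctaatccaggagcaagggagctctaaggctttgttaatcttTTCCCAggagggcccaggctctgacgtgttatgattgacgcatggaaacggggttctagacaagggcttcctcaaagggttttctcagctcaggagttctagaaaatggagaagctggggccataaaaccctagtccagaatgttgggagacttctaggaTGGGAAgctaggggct

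The Rag1 window holds 5 matches, with CAGGTG at -135 and CAGCTG at -128 from the start, RUNX matches at -81 and -67 and an Ikaros match at -52. Siglech has 4 matches, and Cd63, the gene with the largest negative difference, has 2 matches to the Ikaros letters. The Ebf1 window shown is the first of 2 and holds 1 RUNX match. RefSeq windows were found for 89 of the 112 genes above all others (117 windows) and for 42 of the 53 below (56 windows). The CAGGTG letters were in 25.6% of the former, 10.7% of the latter and 20.2% of all 32851 windows. The EBF letters were in 1.71%, 0% and 0.904%, those of RUNX in 18.8%, 12.5% and 16.8%, and those of FOXO in 1.71%, 8.93% and 3.65%. CAGCTG was in 16.2%, 10.7% and 16.3%, and the Ikaros letters, which can overlap a match to EBF, in 25.6%, 30.4% and 25.6%. These shares are descriptions and were not tested.

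Both recombinase genes lay above every other array. Rag1, which encodes the DNA-cutting subunit, read 9.96, 10.43 and 11.11 on the 3 CLP arrays, and between 5.37 and 6.70 with a median of 5.83 on the 23 others. No CLP array came near the others, and the difference was 4.66 ± 0.18 (SE; adjusted p = 7.18e-14). Rag2, its partner and chromosomal neighbour, read 7.82, 7.89 and 8.24 against 4.50 to 6.32, a difference of 2.85 ± 0.15 (adjusted p = 1.58e-11). For both genes the next group was well below CLP: PreGM GFP- for Rag1 (6.26 ± 0.43, SD, n = 3) and LMPP for Rag2 (5.93 ± 0.37, SD, n = 4). Because the other groups' means lay under the median signal, no fold is given.

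Dntt, which encodes TdT, had the largest difference of any gene of the lymphoid lists (4.80 ± 0.16) without being particular to CLP. Its signal was 11.63, 11.75 and 12.24 in CLP, and the highest of the other arrays, at 11.74, overlapped them. By group, CLP stood at 11.87 ± 0.32 (SD, n = 3), LMPP at 11.44 ± 0.30 (SD, n = 4) and PreGM GFP- at 10.18 ± 0.35 (SD, n = 3). The 5 other group means lay between 5.47 and 5.66. CLP and LMPP did not differ beyond their spread (adjusted p = 0.45), whereas CLP lay above PreGM GFP- (adjusted p = 2.8e-05).

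Of the 16 measured genes of V(D)J recombination and the surrogate light chain, 7 were higher and 0 lower in CLP, with a median difference of 0.48 (0.0011 over all genes). Besides the recombinase genes and Dntt these were Vpreb1, Igll1, Vpreb3 and Xrcc6. Xrcc6, the Ku70 subunit of the end-joining machinery, rose by 1.19 ± 0.15 with all 3 CLP arrays above the rest. Igll1, the lambda5 chain of the pre-B receptor, read 8.49, 7.93 and 9.21, and its lowest CLP array fell 0.0034 short of the highest other array. That made it the gene just outside the set of 112, whose narrowest member was Mmp11, clear by 0.0012. At the other edge, Ifitm1 lay below all others by 0.00032 and Wdr12 missed by 0.0012. Vpreb1, which can share probes with its close relative Vpreb2, read 11.75, 9.74 and 12.71 in CLP. The other arrays ran from 5.71 to 11.81, so the groups overlapped widely. Its call (2.65 ± 0.74, adjusted p = 0.038) was lost without CLP array 1 (adjusted p = 0.195) and without CLP array 3 (adjusted p = 0.323). It was also lost when LMPP (adjusted p = 0.0614) or HSC GFP- (adjusted p = 0.0608) was left out of the reference, and without any 1 of 5 arrays of other groups (adjusted p = 0.0504 to 0.0513).

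Of 25 measured B lineage regulators 11 were higher and 1 lower, with a median difference of 0.36 and a positive difference in 19. Ebf1, which specifies the lineage, read 8.11, 7.17 and 9.81 in CLP and 4.64 to 6.77 elsewhere. All 3 CLP arrays lay above the rest, but they spanned 2.64 log2 units, and array 3 was the highest. The difference was 3.24 ± 0.31 (adjusted p = 2.18e-07), and the next group, PreGM GFP- at 6.07 ± 0.84 (SD, n = 3), also had the widest spread of the others. Pax5, the factor of B cell commitment, followed the same order of arrays at 7.93, 7.65 and 8.60, against 6.52 to 7.15 (difference 1.29 ± 0.12, adjusted p = 2.51e-07). Lef1 and Bach2 also lay above all other arrays, by smaller amounts: the Lef1 difference was 0.60 ± 0.12, a call lost without CLP array 3 (adjusted p = 0.0715), and that of Bach2 was 0.58 ± 0.09.

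Other regulators were shared with LMPP. Tcf4, the E protein E2-2, read 10.02, 9.99 and 9.85, Mef2c read 10.47, 10.18 and 10.78, and Ikzf1, which encodes Ikaros, read 10.13, 10.27 and 10.54. Their differences of 1.31, 1.22 and 0.75 all passed the test, and in each case LMPP was the next group and at least 1 other array overlapped CLP. Lmo2, a stem and erythroid cofactor, was the 1 regulator that fell (by 1.05 on the log2 scale, ± 0.10). Foxo1, which drives Rag and Il7r transcription, rose by 0.60 ± 0.13, but the call was lost without CLP array 2 (adjusted p = 0.0767) or array 3 (adjusted p = 0.0873).

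**Figure D1:**
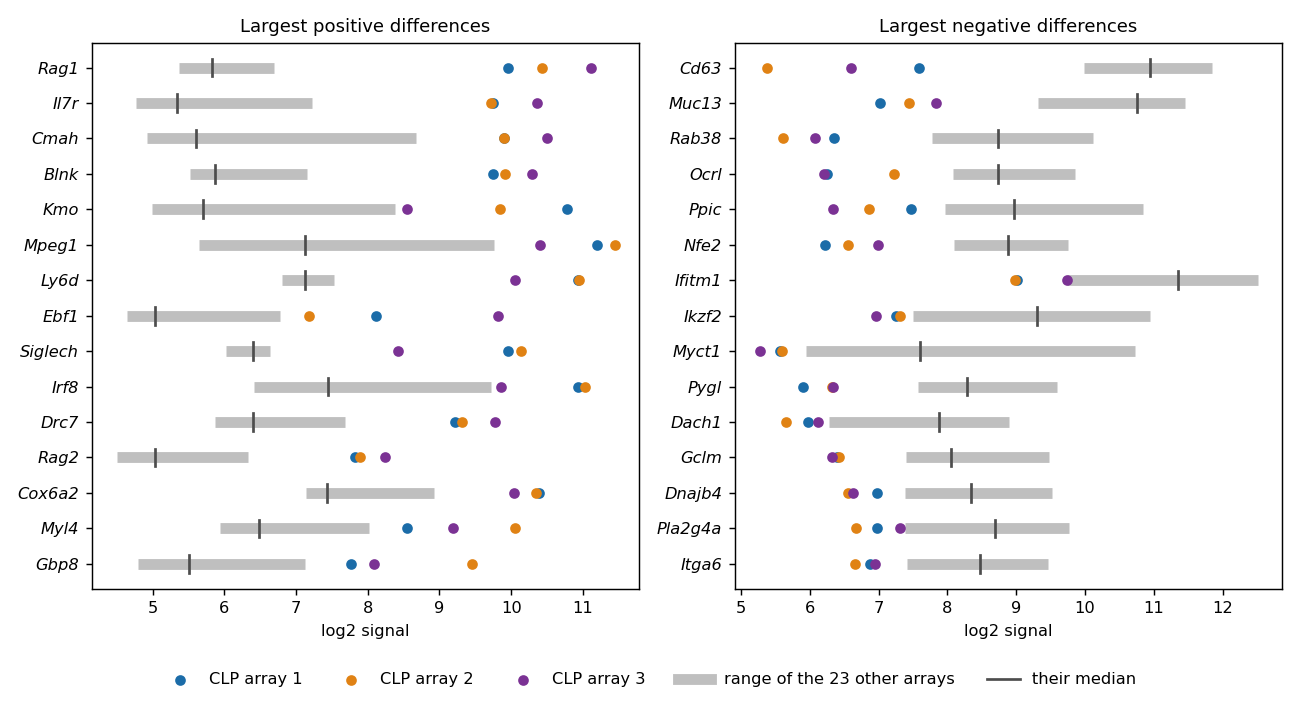
Log2 signal of the 15 genes with the largest positive and the 15 with the largest negative difference among genes whose 3 CLP arrays lie beyond all others; points are the CLP arrays, grey bars the range of the 23 other arrays and dark ticks their median. Rag1 lies between 9.96 and 11.11 in CLP against at most 6.70 elsewhere, and Cd63 between 5.38 and 7.58 against at least 9.99.

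Of 21 measured genes of B cell receptor signalling and the B cell surface, 12 were higher and 1 was lower, with a median difference of 0.72. Blnk, the adaptor that links the pre-B receptor to its kinases, read 9.74, 9.92 and 10.29 against 5.52 to 7.16, a difference of 3.93 ± 0.18 (adjusted p = 1.97e-12). Ly6d read 10.93, 10.95 and 10.06, while the 23 other arrays lay between 6.80 and 7.53. That gap left no overlap, and the difference was 3.48 ± 0.15 (adjusted p = 2.85e-13). Cd93, a surface lectin of early B cells, was also above all other arrays (11.25, 11.42 and 11.29 against at most 10.94). Cd72, an inhibitory B cell receptor, had a similar difference (1.54 ± 0.30) but met LMPP, whose mean was 9.15. Bst1, an ectoenzyme of early B cells, was uneven at 6.19, 8.37 and 6.79. Cd9 was the gene that fell, by 0.97, and lost its call without any 1 of the CLP arrays. Of 11 measured markers of mature B and plasma cells 1 was higher (9.09%, against 2.64% of all genes) and 0 lower. The 1 called was Sdc1 (0.58 ± 0.11). The mean log2 signal of this list was 6.24, 6.18 and 6.09 in CLP, within the 5.86 to 6.43 of the other arrays.

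Il7r and Flt3 were used to sort CLP, so their levels describe the gate. Il7r read 9.74, 9.72 and 10.36 against 4.77 to 7.23. Flt3 read 11.09, 10.80 and 11.50, close to LMPP at 11.44 ± 0.24 (SD, n = 4). Kit, for which CLP were sorted as low, read 7.63, 7.79 and 9.10, and array 3 met the lowest of the other arrays, at 9.07. Sca1 is not analysed here. Of the 10 measured sort antigens of all the groups, 2 were higher and 5 lower in CLP. Slamf1 and Fcgr3 are also in that list. Of the 20 measured genes of interleukin 7 and common gamma chain signalling, 2 were higher and 0 lower: Il7r itself and the survival gene Bcl2 (0.69 ± 0.12, with PreGM GFP- next at 10.14). The median difference of the list was 0.03.

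**Figure D2:**
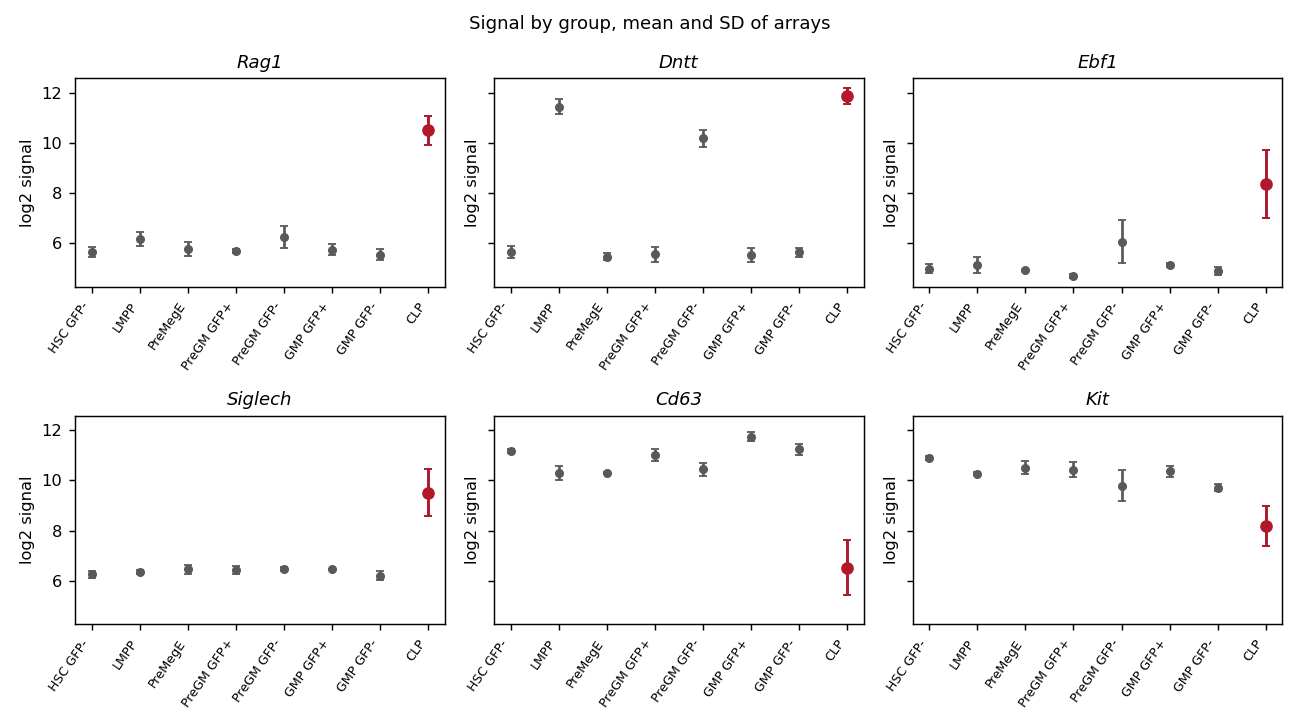
Log2 signal by group for 6 genes, as mean and SD of the arrays of each group, with CLP in red. Rag1 and Siglech stand apart in CLP, Dntt reaches similar means in LMPP (11.44) and CLP (11.87), Ebf1 has its widest SD in CLP (1.34), and Cd63 and Kit are lowest in CLP.

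Of 28 measured genes of the Notch pathway and T lineage, 4 were higher and 0 lower, with a median difference of 0.09 and a positive difference in 23. The mean log2 signal of the list was 6.93, 6.93 and 6.98 in CLP, above each of the other arrays (6.51 to 6.84). Cd28, a T cell costimulatory receptor, read 7.66, 7.52 and 6.79 against 5.42 to 6.06, a difference of 1.57 ± 0.13 with no overlap. Cd7, found on early lymphoid cells, read 9.48, 9.19 and 7.15, so that array 3 fell within the range of the others (6.08 to 7.35). Notch1, the receptor that starts T cell fate, ran the other way at 8.10, 8.15 and 9.54, and CLP and LMPP did not differ beyond their spread (adjusted p = 0.44). Cd6 made up the 4 with a difference of 0.35 that was lost without CLP array 1 (adjusted p = 0.087) or array 3 (adjusted p = 0.348). Of 11 mature T cell markers 1 (9.09%), again Cd6, was called higher, against 2.64% of all genes.

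Among 25 measured genes of natural killer and innate lymphoid cells, 6 were higher and 2 lower, with a median difference of 0.09. The 6 include Il7r, whose level describes the gate of CLP. Il18r1, the interleukin 18 receptor chain, rose by 2.41 ± 0.26 (8.83, 8.37 and 8.79), with LMPP next at 7.20 ± 0.89 (SD, n = 4). Klrd1, the CD94 receptor chain, read 8.53, 8.14 and 6.16, and array 3 overlapped the other arrays, which reached 6.79. Zbtb16 and Nkg7 fell (differences of -0.86 and -1.40). Zbtb16 lost its call without CLP array 2 (adjusted p = 0.13) and Nkg7 without CLP array 1 (adjusted p = 0.0861).

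The dendritic cell list had the highest share of genes called higher of the lists: 15 of 22 measured were higher and 0 lower, with a median difference of 0.87, and 8 lay above all other arrays. Ly6d, Irf8, Tcf4, Spib, Bst2, Irf7 and Ccr9 of this list also stand in other lists. Siglech, a lectin of plasmacytoid dendritic cells, read 9.95, 10.13 and 8.43 against 6.02 to 6.64, a difference of 3.13 ± 0.19 (adjusted p = 2.26e-10). Cox6a2, a cytochrome oxidase subunit of muscle and of plasmacytoid dendritic cells, read 10.39, 10.34 and 10.04 against 7.14 to 8.93. Neither gene overlapped with any other array. Irf8, a factor of dendritic cells and monocytes, read 10.93, 11.03 and 9.86, just clear of the highest other array at 9.72, with PreGM GFP- next (8.87 ± 0.74, SD, n = 3). Clec9a, a receptor of conventional dendritic cells, read 9.14, 7.21 and 4.74. Array 1 was above and the other two were within the range of the other arrays (4.29 to 7.24), and the call (2.23 ± 0.50) was lost without CLP array 1 (adjusted p = 0.219) or array 2 (adjusted p = 0.0619). Of other genes of this list, chosen after their values were seen, Itgax, the CD11c integrin chain, lay above all other arrays at 8.25, 8.57 and 6.83 (1.53 ± 0.20, adjusted p = 1.4e-05), while Zbtb46, Batf3 and Xcr1 of conventional dendritic cells were not called (differences of 0.08, 0.08 and 0.12).

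Monocyte and macrophage genes split. Of 29 measured, 11 were higher and 2 lower, with a median difference of 0.06, and the 11 became 5 without CLP array 1, 6 without array 2 and 12 without array 3. Mpeg1, which encodes the pore protein perforin-2, read 11.20, 11.44 and 10.40 against 5.64 to 9.75, with no overlap (3.65 ± 0.30, adjusted p = 1.95e-08). Ly86, the MD-1 chain of a Toll-like receptor relative on B cells and myeloid cells, and Ctss, the cathepsin of antigen processing, rose by 3.002 and 2.35 but met PreGM GFP- (9.98) and LMPP (10.04). Cebpa, the factor of granulocyte-monocyte fate, and the Fc receptor gene Fcgr3 were the 2 that fell (differences of -0.76 and -1.05). Of 13 genes of MHC class II presentation 3 were higher (Ctss, H2-Ob and H2-DMa), or 5 without CLP array 3, with a median difference of 0.44.

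**Figure D3:**
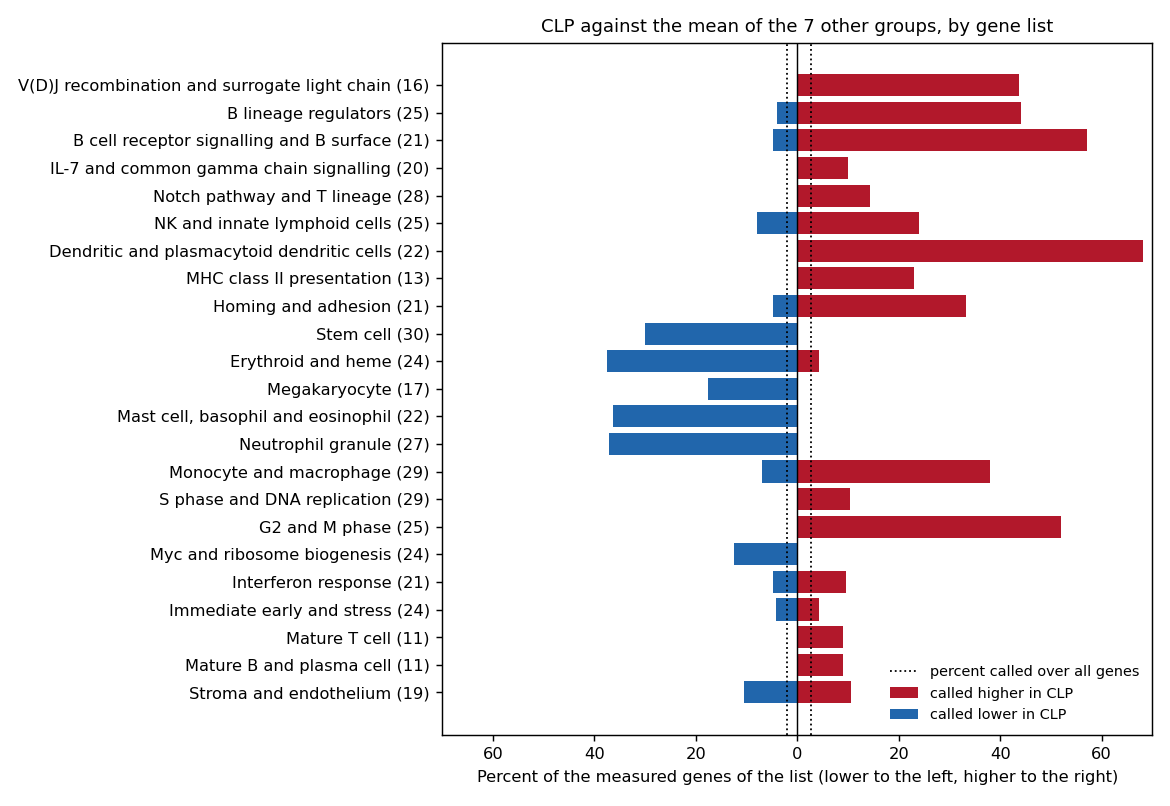
Percent of the measured genes of each list (number in brackets; sort antigens and sex-linked genes are not drawn) called higher (red, to the right) or lower (blue, to the left) in CLP, with dotted lines at the 2.64% and 2.01% of all genes. Lists of dendritic cells (15 of 22 higher), B cell receptor signalling (12 of 21) and G2 and M phase (13 of 25) reach furthest to the right, and erythroid, neutrophil and mast cell lists to the left.

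Of 25 measured G2 and M phase genes 13 were called higher in CLP and 0 lower, with a median difference of 0.76 and a positive difference in all 25. The mean signal of the list in GMP GFP- (9.07 to 9.23) overlapped that in CLP (9.15 to 9.45), so the level was shared with that group. The count depended on each array, at 6 without CLP array 1, 4 without array 2 and 11 without array 3. Kif23, a kinesin of cytokinesis, read 10.44, 10.33 and 10.16 and lay above all other arrays, which reached 9.92 (1.68 ± 0.29, adjusted p = 0.000652). Nusap1, a spindle protein, rose by 1.02 ± 0.18 and Aurka, the mitotic kinase, by 1.01 ± 0.24. The Aurka call was lost without CLP array 1 (adjusted p = 0.0937) or array 2 (adjusted p = 0.103). Of 29 S phase genes 3 were higher, of which Uhrf1, the partner of maintenance methylation, had the largest difference (0.91 ± 0.16); the count was 1, 2 and 1 without CLP arrays 1, 2 and 3. Of 24 genes of Myc and ribosome biogenesis 0 were higher and 3 lower, and those counts were 0, 2 and 1 lower without the same arrays. Myc itself fell by 0.67 ± 0.14, a call lost without CLP array 1 (adjusted p = 0.0897).

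Homing receptors rose in part: 7 of 21 measured were higher (33.3%) and 1 lower (4.76%), with a median difference of 0.19. Pecam1 (1.11 ± 0.20), Selplg, the P-selectin ligand (1.06 ± 0.18), and Cxcr4, the marrow retention receptor (0.69 ± 0.13), were among them. Ccr9, a thymus and gut homing receptor, rose by 0.75 ± 0.16, near the median signal at 6.81, 5.98 and 6.37, and lost its call without CLP array 1 (adjusted p = 0.122). Among 21 interferon response genes 2 were higher (9.52%) and 1 lower (4.76%), and among 24 immediate early and stress genes 1 was higher and 1 lower (4.17% each way). Of all genes 2.64% were higher and 2.01% lower.

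In the lists of other fates more genes were called lower than higher. In the stem cell list 0 of 30 were higher and 9 lower, with a median difference of -0.21; 6, 4 and 8 were lower without CLP arrays 1, 2 and 3. Angpt1, a niche ligand, read 7.05, 7.26 and 8.33, against 6.31 to 11.17 elsewhere, and fell by 2.36 ± 0.24. Gata2, Hlf and Meis1, transcription factors of stem cells, fell (differences of -1.39, -1.33 and -1.28). For Angpt1, Gata2 and Meis1 the next group was GMP GFP-, and for Hlf it was GMP GFP+. In all 4 genes at least 1 other array overlapped CLP. Slamf1, also called lower, encodes CD150, for which the stem cells were sorted as positive. Its call was lost without HSC GFP- in the reference (adjusted p = 0.0949), and also without CLP array 2 (adjusted p = 0.0639) or array 3 (adjusted p = 0.0585).

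Of 24 erythroid and heme genes 9 were lower and 1 was higher, with a median difference of -0.47. The mean signal of this list in CLP (6.74 to 6.82) lay within that of GMP GFP- (6.69 to 6.87). It stood highest in PreGM GFP+ (8.16 to 8.39), PreMegE (8.09 to 8.31) and GMP GFP+ (7.68 to 7.84). Car2 and Car1, carbonic anhydrases, had differences of -2.84 and -2.5006, with CLP signals near or under the median of all values. Nfe2, a factor of erythroid and megakaryocyte genes, read 6.21, 6.56 and 6.997 against 8.10 to 9.75 elsewhere, so it was low in CLP against every group and not only against erythroid-committed cells (difference -2.32 ± 0.18, adjusted p = 6.58e-09). Tfrc, the transferrin receptor of iron uptake in dividing cells, was the 1 that rose (10.77, 10.02 and 10.17 against 7.23 to 9.66). Of 17 megakaryocyte genes 3 (17.6%) were lower, against 2.01% of all genes. Of 22 genes of mast cells, basophils and eosinophils 8 were lower, or 5 without CLP array 1, with differences of -2.75 for Cpa3 and -2.38 for Slc18a2. The mean signal of this list in CLP (5.84 to 6.03) lay within that of LMPP (5.75 to 6.04). It stood highest in GMP GFP+ (8.80 to 9.26), then in PreGM GFP+ (6.80 to 6.85). Of 27 neutrophil granule genes 10 were lower and 0 higher, with a median difference of -0.91 and no positive difference in the list. Ms4a3, of granulocyte-monocyte progenitors, fell by 2.65 ± 0.22. The mean neutrophil list signal ran from 6.62 to 10.32 over the other arrays, with CLP at 6.96, 7.23 and 6.82. The CLP values overlapped those of LMPP (6.94 to 7.27) and lay above HSC GFP- (6.62 to 6.75). The list stood highest in GMP GFP- (9.51 to 10.32).

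The genes below every other array mostly stood outside these lists. Cd63, a tetraspanin of late endosomes and granules, read 7.58, 5.38 and 6.60 in CLP against 9.99 to 11.85 elsewhere, with a median of 10.94. All 7 other groups were high and within 10.29 to 11.74 in their means, and the difference was -4.36 ± 0.24 (adjusted p = 2.01e-11). Muc13, a transmembrane mucin, read 7.02, 7.43 and 7.84 against 9.32 to 11.45 (-3.25 ± 0.19). Rab38, a GTPase of lysosome-related organelles, read 6.35, 5.61 and 6.07 against 7.78 to 10.11 (-2.80 ± 0.19). Ocrl, an inositol phosphatase of endosomes, and Ppic, a cyclophilin, fell (differences of -2.36 and -2.35). Ikzf2, which encodes the Ikaros relative Helios, read 7.26, 7.31 and 6.97 against 7.496 to 10.94, with GMP GFP- next at 7.98 ± 0.42 (SD, n = 4). The adhesion receptor Itga6, the glycogen phosphorylase gene Pygl, the glutathione synthesis gene Gclm and the phospholipase gene Pla2g4a fell (differences of -1.63, -2.17, -1.79 and -1.64). Ifitm1, whose probes may also read other members of its family, read 9.02, 8.99 and 9.73, and Ifitm2, beside it on chromosome 7, also lay below all others (-1.35). Clec4d and Clec4e, neighbours on chromosome 6, did so too (differences of -0.997 and -1.54).

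Other genes above all other arrays stood outside the lists. Cmah, which makes the sialic acid Neu5Gc, read 9.90, 9.90 and 10.50 against 4.93 to 8.68 and had LMPP next (7.87 ± 0.59, SD, n = 4). The sialyltransferases St6gal1 and St8sia1, chosen after their values were seen, also lay above all others (1.35 and 0.60). Kmo, an enzyme of tryptophan breakdown, read 10.79, 9.85 and 8.54 against 4.99 to 8.38. It was clear of all others in each array, but array 3 only narrowly, and the difference was 3.93 ± 0.36. Drc7, a protein of motile cilia, rose by 2.89 ± 0.16, and Adgrg3, beside it on chromosome 8, by 0.99. Myl4, an atrial myosin light chain, read 8.54, 10.06 and 9.19, and Gbp8, a guanylate-binding protein gene, 7.76, 9.46 and 8.09; CLP array 2 was the highest for both. Gimap4 and Gimap7, neighbouring GTPase genes of lymphocytes that may share probes, rose by 2.23 and 2.28. Among the 112 genes there were 9 pairs within 200 kb of each other, and among the 53 there were 2. The nearest other group by mean was PreGM GFP- for 34 of the 112 and LMPP for 32, and for the 53 it was LMPP for 19.

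The 3 CLP arrays were not alike. Over all genes, which are not independent replicates, they correlated at r = 0.972 (arrays 1 and 2), 0.974 (1 and 3) and 0.963 (2 and 3). Their median SD of 0.164 lay within the range of the other groups (0.153 to 0.234), while 143 genes had an SD above 1, against 33 to 200 in the others. An array stood apart by more than 1 log2 unit from both others, higher or lower, in 53 and 14 genes for array 1, 120 and 137 for array 2, and 45 and 144 for array 3. Such arrays were not particular to CLP. The counts were 55 and 521 for PreGM GFP- array 2, 112 and 436 for PreMegE array 1, and 253 and 178 for HSC GFP- array 1. They were lower, at 17 and 20, for PreGM GFP+ array 1. Of the 144 that were lower in CLP array 3, 37 were called higher and 4 lower in CLP, against 527 and 400 of all 19938 genes. Of the same 144, 7 lay above all other arrays, against 116 of all genes, called or not.

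Among the genes lower in array 3 were several of the dendritic and monocyte lists. Of 22 dendritic cell genes 6 (27.3%) and of 29 monocyte genes 7 (24.1%) were lower in array 3 by more than 1 unit, against 0.722% of all genes. The genes were seen in these same arrays, so the shares are descriptions. Ms4a6c read 10.90, 11.10 and 7.56, the widest such gap, and the other arrays ran from 4.63 to 10.99. S100a6 read 9.95, 10.50 and 6.72, Ctsh 10.09, 9.95 and 6.76, and Ccr2, a monocyte chemokine receptor, 9.01, 8.66 and 6.02. In each of these genes array 3 lay at least 2.63 below both other CLP arrays. Of these, the calls of Ms4a6c, S100a6 and Ccr2 were lost without CLP array 1 (adjusted p = 0.363, 0.215 and 0.387) and without array 2. Cybb, F13a1, Fcer1g, Cd68 and Tyrobp, chosen after their values were seen, were lower in array 3 by 2.20, 2.40, 2.10, 1.98 and 1.499.

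The mean log2 signal of the 29 monocyte genes was 8.03, 8.04 and 7.34 on the 3 CLP arrays, against 6.51 to 8.31 on the others. That of the 22 dendritic cell genes was 8.20, 7.95 and 7.43, and all 3 exceeded the highest other array, at 6.89. The dendritic cell count was 16 without array 3, 12 without array 1 and 13 without array 2. Of the monocyte and macrophage list, 11 of 29 genes were called higher, as given above. Among the uncalled ones C1qa, C1qb and C1qc read 5.90 to 6.76 in CLP and Adgre1 5.23 to 5.33; these 4 were chosen after their values were seen. The part that cells of dendritic or monocyte type within the gate play in these values was not tested.

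**Figure D4:**
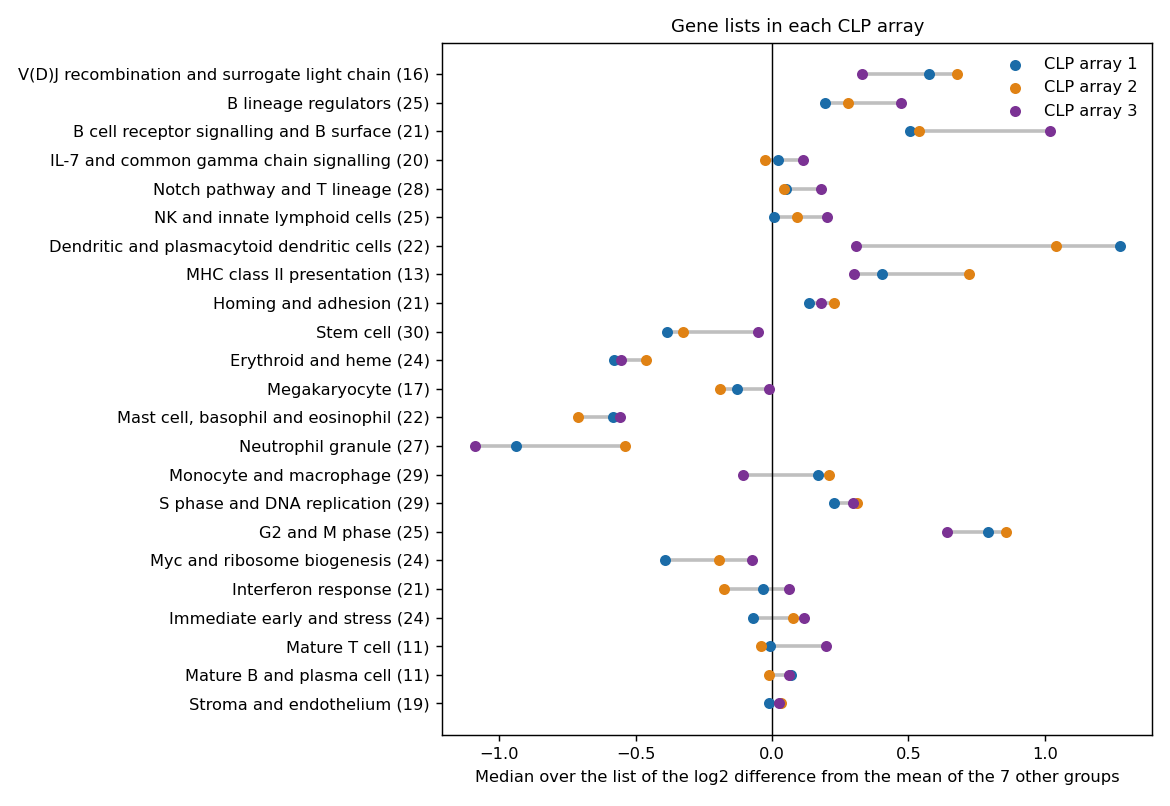
Median over each list of the difference between 1 CLP array and the mean of the 7 other groups, in log2 units, with 1 point for each CLP array. Of the lists drawn, array 3 is lowest for the V(D)J (0.33), dendritic cell (0.31), MHC class II (0.30), neutrophil (-1.09), monocyte (-0.11) and G2 and M phase (0.64) lists, and it is highest for B cell receptor signalling (1.02) among others.

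For part of the lymphoid genes array 3 was the array with the highest signal. It was the highest of the 3 for 14 of 25 B lineage regulators, 13 of 21 B cell receptor genes and 18 of 28 Notch and T lineage genes, and it was the highest for 8549 of all 19938 genes. Ebf1, Notch1 and Kit were each over 1 unit higher in it than in both other CLP arrays. The mean signal of the V(D)J list was 8.94, 8.89 and 9.23, and that of the B lineage regulators 7.97, 7.96 and 8.21. The median difference of the V(D)J list ran the other way and was lowest in array 3 (0.58, 0.68 and 0.33). Array 2 had the lowest Ebf1, Pax5, Igll1 and Vpreb1 of the 3, although its Rag1 lay between the others. Stem cell genes were also least reduced in array 3, with a median list difference of -0.05 against -0.38 and -0.33.

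Array 2 stood apart in other genes. Prkch, a protein kinase C gene, read 7.16, 10.62 and 6.82, Myo9a 6.51, 9.95 and 7.44, and the neutrophil granule gene Ngp 6.29, 9.75 and 7.25. None of these 3 was called in CLP (adjusted p = 0.935, 0.674 and 0.794). Ifi206, an interferon-inducible gene, read 6.24, 9.19 and 7.86 and was called, but not without array 2 (adjusted p = 0.158). Cd63 was lowest in array 2. Sex-linked genes also differed: Xist read 11.28, 10.84 and 10.31 and the Y-linked Kdm5d 6.97, 6.54 and 7.85, within the ranges of the other arrays (10.003 to 11.33 and 5.83 to 8.39). The labels give no sex. The part of sex or of other differences between the sorts in the spread of the CLP arrays was not tested.

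**Figure D5:**
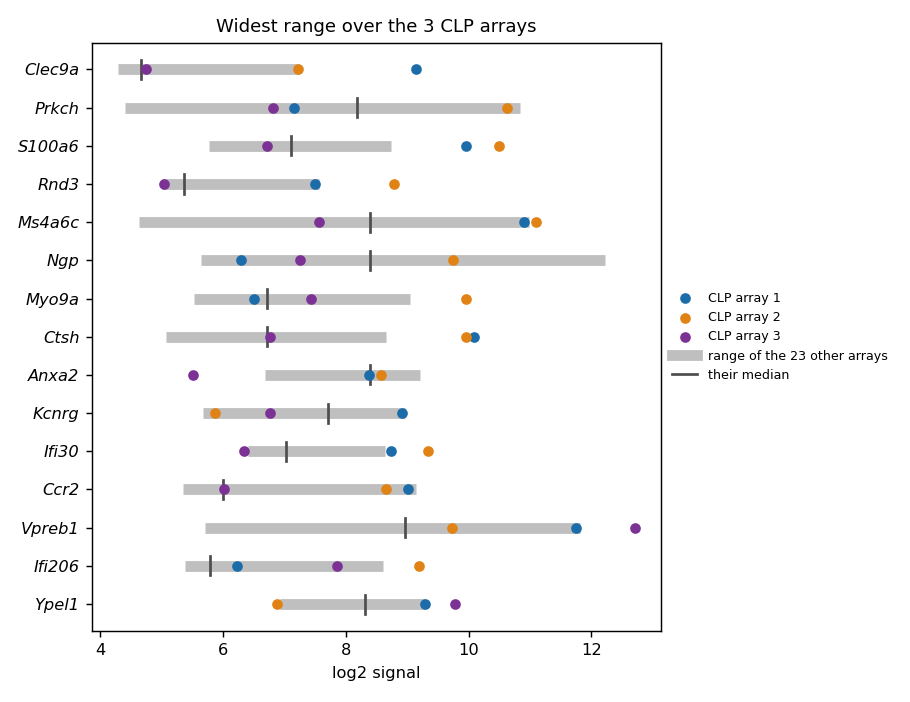
Log2 signal of the 15 genes with the widest range over the 3 CLP arrays among genes with a CLP mean above 6.61; points are the CLP arrays and grey bars the range of the 23 other arrays. Array 3 is the lowest CLP array for Clec9a (4.74), S100a6 (6.72), Ms4a6c (7.56) and Ctsh (6.76), and array 2 the highest for Prkch (10.62), Ngp (9.75) and Myo9a (9.95).

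Each CLP array was correlated over all genes with the single arrays of each group, and r was averaged by group. Arrays 1 and 3 were closest to LMPP (mean r = 0.966 and 0.967), then to PreGM GFP- (0.961 and 0.958). Array 2 was at 0.953 to both and had the lowest r of the 3 to each of the groups. These values are across genes and share the probe effects of the array, so they are given without a test. Over the stroma and endothelium list, 2 of 19 genes were higher and 2 lower (10.5% each way, against 2.64% and 2.01% of all genes). Pecam1, counted above among homing receptors, was among those higher. The lower calls of Emcn and Tie1 were lost without HSC GFP- in the reference (adjusted p = 0.219 and 0.143). That of Emcn was also lost without LMPP in the reference (adjusted p = 0.158). It was lost as well without CLP array 1, 2 or 3 (adjusted p = 0.166, 0.230 and 0.0731). The Tie1 call was also lost without CLP array 2 (adjusted p = 0.0576) or array 3 (adjusted p = 0.0616). The mean list signal was 6.36, 6.37 and 6.35 in CLP against 6.22 to 6.47 elsewhere. The part of other marrow cells in these values was not tested.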

How the data were processed

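RNA of sorted cells had been hybridised, as biotin-labelled cRNA, to Mouse Gene 1.1 ST arrays, per the labels' protocols. The deposited values are log2 signals made by RMA, and the submitters' processing notes name RMA and oligo without versions; the log base was inferred from the range of the values. Of 35556 probe sets, 21789 named 1 gene in an annotation of the 1.0 ST array; 1621 naming several and 12146 naming none were left out, and the highest-mean probe set was kept per gene. Array medians ran from 6.42 to 6.70; the number of arrays limits the precision. limma 3.58.1 in R 4.3.3 fitted 1 coefficient per group to all 26 arrays, with Benjamini-Hochberg adjustment, and was tested on simulated data. Differences are given with their SE.

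The members, gene lists and tests were chosen with earlier results of these data known. Genes named are the 15 largest differences each way among those beyond all other arrays, the 15 widest in CLP, up to 5 called genes per list, any gene of the V(D)J, B regulator, interleukin 7, sort antigen and sex-linked lists, and others said to be chosen after their values were seen. Genes named only as neighbours, as array 3 examples, or at the edges of the sets came from those tables. Clone names, small RNAs and receptor segments were passed over.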

Additional observations from a re-analysis of the deposited data

Results flagged for a closer look

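Among the 30 genes with the largest differences, tested in the 2 groups of 4 arrays, 4 of 60 sets of values had 1 array far from its group, where chance gives about 1 in 20. Il7r read 5.55 on LMPP array 2 against 6.48 to 6.60 on the 3 others, and Mpeg1 read 8.58 on LMPP array 1 against 8.26 to 8.31. Cox6a2 read 7.5001 on GMP GFP- array 1 against 7.15 to 7.18, and Itga6 read 7.78 on GMP GFP- array 4 against 8.47 to 8.61. None of these values reached the CLP arrays. The groups of 3, CLP among them, were not examined this way.

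Probe sets that name several genes or none were left out of the comparison. Of 13767 such probe sets 134 were called higher and 42 lower in CLP by the same limma fit, and 26 of the former had all 3 CLP arrays above every other array, with a largest difference of 2.72.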

How the results depend on the processing

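At an adjusted p under 0.01 the counts fell to 324 higher and 245 lower, and against each of the 7 groups to 38 and 11. Leaving out 1 array at a time gave 358 to 566 genes higher and 232 to 459 lower, 110 to 231 above and 52 to 91 below all other arrays, and 51 to 83 higher and 12 to 28 lower against each group. Other scalings, probe set rules, references and variance settings kept these counts within 1.5 times, and centring moved the median gene from 0.0011 to -0.0019. No named gene reversed; 144 of 6467 gene values lost and 8 gained a call. Replicate numbers were not taken to pair the arrays: deviations of CLP arrays and same-numbered arrays of the 7 other groups, 21 pairs in all, correlated between -0.12 and 0.18, 6 of them over 0.1, and pairs among the other groups were not measured. With a replicate block 518 genes were higher and 425 lower, 111 above and 53 below all others, and 65 and 21 against each group. Of the original calls 493 and 377 were kept. Fewer were kept without a CLP array: 325, 321 and 395 of the 527 higher calls without arrays 1, 2 and 3. Of the 400 lower calls, 267, 214 and 269 were kept without the same arrays. Dim probe sets limit the low genes: CLP means of 8 of the 112 and 24 of the 53 lay under the median signal.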
